A study of Homo sapiens with 6 samples.

Results

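MCM2, MCM3, MCM4, MCM5, MCM6 and MCM7 encode the subunits of the MCM2-7 replicative helicase. The genes were chosen by symbol from the deposited expression table of SaOS2 cells, and all 6 were found among its 23228 gene names. SaOS2 is an osteosarcoma line that lacks functional RB, and the paper describes it as null for p53 as well. The cells studied here carried a Tet-inducible p21 vector in every library. Cells of the p21 OFF group (3 libraries) received no doxycycline, and cells of the p21 ON group (3 libraries) received 1 μg/ml doxycycline for 24 h by the sample labels. Polyadenylated RNA was sequenced, and the comparison addresses which genes change when the CDK inhibitor p21 is switched on in cells without RB. Doxycycline was not given to cells without the vector in the libraries analysed here, so p21 and the drug cannot be told apart. Both groups come from a single cell line.

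MCM2-7 is a ring of related AAA+ ATPases that encircles DNA. In G1 the origin recognition complex, CDC6 and CDT1 load it onto origins as an inactive double hexamer, which licenses them for replication. In S phase the kinases CDC7-DBF4 and CDK, together with a set of firing factors, recruit CDC45 and the GINS complex to each hexamer, and the resulting CDC45-MCM-GINS (CMG) helicase unwinds DNA at the fork. Genes encoding the subunits are well-known E2F targets that peak at the G1/S transition, and cells hold far more MCM2-7 than is used at active forks.

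The values are normalized counts, which are reads per gene divided by the size factor of the library. The 6 libraries held 12795490 to 21975045 reads on genes, and a subunit was covered by 1197 to 8167 reads per library. CDKN1A, which encodes p21, rose from 1266 ± 84.5 to 43691 ± 3138 normalized counts (SD, n = 3 each), so the labels held for the induced gene in every library. Of 8 osteoblast markers 7 had a mean of at least 10 normalized counts, BGLAP was at 0, and the sum of the list was 73271 to 76454 in p21 OFF and 74484 to 77781 in p21 ON. Most of that sum was ALPL and SPARC, with means of 36026 and 20141 in p21 OFF. IBSP was called lower with p21 ON (log2 fold change -0.38, limma adjusted p = 0.0264), and the other tested markers of the list were not called. The 4 leukocyte markers summed to 11.0 to 19.8 normalized counts, the 3 endothelial markers to 13.3 to 22.6 and the 4 epithelial markers to 317 to 398 over all libraries. Most of the epithelial sum was EPCAM, with means of 330 in p21 OFF and 313 in p21 ON. The labels do not say whether the replicates were separate cultures, so the p-values measure the spread between these libraries. In bulk RNA, fewer cells of a type and less RNA per cell cannot be told apart.

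The promoters of the 6 genes share a feature that the choice of genes did not use. Each holds at least 1 match to the letters of an E2F site (TTTCCCGC, TTTCGCGC, TTTGCCGC or TTTGGCGC on either strand) in a window of 250 bp before and 50 bp after the start of its canonical transcript, whereas 731 of 17007 promoters of protein-coding genes (4.30%) do. The following stretches of GRCh37, read on the strand of the gene and ending with the first 14 transcribed bases, are shown because they hold most of these matches, with the matched letters in capitals. They lie at chr3:127317054-127317267 (MCM2, plus strand), chr6:52149527-52149740 (MCM3, minus strand), chr22:35795933-35796146 (MCM5, plus strand), chr2:136634000-136634213 (MCM6, minus strand) and chr7:99699007-99699220 (MCM7, minus strand).
MCM2: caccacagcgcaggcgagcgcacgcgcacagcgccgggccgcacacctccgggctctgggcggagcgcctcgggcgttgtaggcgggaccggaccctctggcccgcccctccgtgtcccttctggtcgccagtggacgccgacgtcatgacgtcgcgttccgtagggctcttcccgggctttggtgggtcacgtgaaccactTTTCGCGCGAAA
MCM3: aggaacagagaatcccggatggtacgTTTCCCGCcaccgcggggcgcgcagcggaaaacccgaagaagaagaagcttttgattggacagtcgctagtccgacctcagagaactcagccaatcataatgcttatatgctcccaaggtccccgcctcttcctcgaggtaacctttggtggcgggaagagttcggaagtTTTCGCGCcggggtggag
MCM5: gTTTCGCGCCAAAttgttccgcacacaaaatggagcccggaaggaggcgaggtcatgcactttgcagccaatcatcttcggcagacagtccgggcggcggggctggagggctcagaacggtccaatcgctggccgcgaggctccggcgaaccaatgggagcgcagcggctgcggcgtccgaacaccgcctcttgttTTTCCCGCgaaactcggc
MCM6: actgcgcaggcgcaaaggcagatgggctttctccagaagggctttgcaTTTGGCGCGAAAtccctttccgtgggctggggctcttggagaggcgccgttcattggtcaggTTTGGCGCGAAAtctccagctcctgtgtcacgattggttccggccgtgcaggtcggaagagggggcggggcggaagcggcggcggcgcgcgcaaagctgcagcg
MCM7: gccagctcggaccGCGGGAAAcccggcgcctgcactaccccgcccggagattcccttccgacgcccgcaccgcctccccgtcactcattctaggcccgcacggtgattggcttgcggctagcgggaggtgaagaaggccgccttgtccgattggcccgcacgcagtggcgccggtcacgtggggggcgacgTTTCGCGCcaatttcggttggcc

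In MCM2 the capitals are an overlapping pair of matches on opposite strands that starts at the third base of the transcript. MCM3 has a match whose first base lies 174 bp upstream and another 4 bp upstream that runs across the start. MCM5 likewise has a match across its start, beside an overlapping pair that begins 199 bp upstream. MCM6 holds overlapping pairs that begin 152 bp and 90 bp upstream. MCM7 has a match on each strand, with first letters 187 bp and 9 bp upstream. The match of MCM4 lies 230 bp upstream of its start. CCAAT was present on either strand in 5 of 6 promoters, all but that of MCM2, against 35.9% of all promoters. TTTGAA or TTCGAA, the letters of a cell cycle homology region, was present only in that of MCM6, against 12.4% of all promoters. A match describes letters in this window and was not tested for binding.

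With p21 ON, transcripts of 5 of the 6 subunits rose and none fell past the threshold. The increases were modest, from 1.19-fold for MCM4 to 1.38-fold for MCM6, and MCM7 did not pass the test. Among the 13255 genes tested, 10.5% were called higher and 12.7% lower (limma, Benjamini-Hochberg adjusted p under 0.05), and among 4092 genes that average 1000 normalized counts or more, a level that all 6 subunits exceed, 8.16% were called higher and 19.6% lower. In numbers of genes this was 1393 higher and 1681 lower, which became 2034 and 1194 when libraries were scaled by their total reads alone, with the calls of the 6 subunits the same. Without p21 ON library 1 the numbers were 692 and 888, and without p21 ON library 3 they were 739 and 1076, again with 5 subunits higher and none lower. The median log2 fold change of the 6 genes was 0.29, beside 0.0056 for all genes tested. Fold changes are on the scale of log2(normalized count + 1) and are given as p21 ON over p21 OFF.

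MCM6, one of the subunits that CDT1 contacts during loading, had the lowest counts and the greatest increase. Its normalized counts were 1503, 1476 and 1538 in p21 OFF and 2079, 2257 and 1934 in p21 ON. The groups did not overlap, and the p21 ON libraries were the more scattered. The mean went from 1506 ± 31.0 to 2089.8 ± 162 (SD, n = 3 each), and the log2 fold change was 0.47 (SE 0.07, 95% interval 0.33 to 0.61, limma adjusted p = 5.57e-05). Its log2 fold change was larger than that of 94.1% of all genes tested and of 99.4% of genes with a mean of at least 1000.

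MCM3, which forms a side of the MCM2-7 ring beside MCM5, was next. MCM3 had 4913, 4821 and 5250.2 normalized counts in p21 OFF and 6328, 6693 and 6558 in p21 ON, with a gap of 1078 between the highest p21 OFF and the lowest p21 ON library. The log2 fold change was 0.39 (SE 0.06, 95% interval 0.26 to 0.51, limma adjusted p = 0.00013), or 1.31-fold. MCM5, which forms with MCM2 the gate through which DNA enters the ring, had 4923, 5165 and 5051 normalized counts in p21 OFF against 6044, 6176 and 6517 in p21 ON. Every p21 ON library again lay above every p21 OFF library. The log2 fold change of MCM5 was 0.31 (SE 0.06, 95% interval 0.19 to 0.43, limma adjusted p = 0.00102), or 1.24-fold.

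MCM2, the other side of the gate and a subunit that also binds histones, had 3107, 3121 and 3341 normalized counts in p21 OFF and 3733, 3983 and 3862 in p21 ON. The groups did not overlap. Its log2 fold change was 0.28 (SE 0.06, 95% interval 0.15 to 0.40, limma adjusted p = 0.00295), or 1.21-fold. MCM4, which forms with MCM6 and MCM7 a subcomplex that has helicase activity on its own, had 3612, 3913 and 4034 normalized counts in p21 OFF and 4589, 4728 and 4444 in p21 ON. It had the smallest increase of the 5 that passed the test, again without overlap between groups. Its log2 fold change was 0.25 (SE 0.06, 95% interval 0.13 to 0.38, limma adjusted p = 0.00627), or 1.19-fold.

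MCM7, the subunit that is ubiquitinated when the helicase is unloaded, stood apart. Its normalized counts were 5904, 6312 and 6037 in p21 OFF and 5610.0, 5877 and 5738 in p21 ON. The p21 ON libraries were all below the p21 OFF libraries, but the nearest of them were only 27.3 normalized counts apart. The log2 fold change was -0.08 (SE 0.06, 95% interval -0.20 to 0.04, limma adjusted p = 0.303), so the interval reaches from a fold of 0.869 to 1.03 and lies below the intervals of the other 5 subunits. Every p21 ON library lay below every p21 OFF library for 21.3% of all genes tested, and every p21 ON library above for 19.1%. An exact two-sided permutation test of a single gene with 3 libraries a group cannot go below p = 0.1, and it gave p = 0.1 for each of the 6 subunits.

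**Figure D1:**
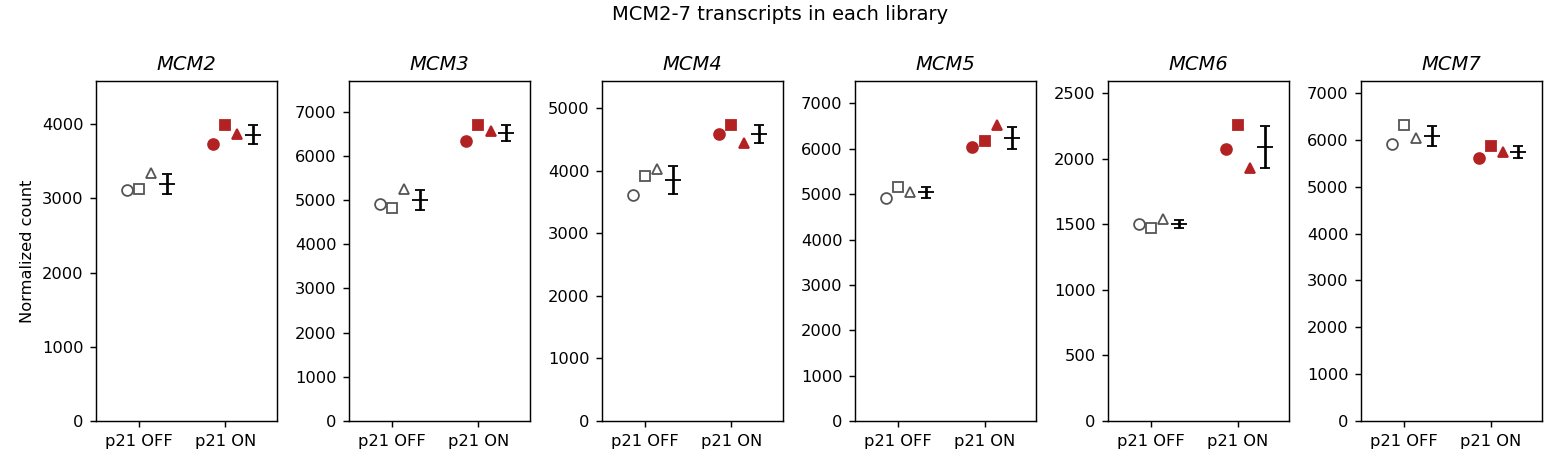
Normalized counts of the 6 MCM2-7 genes (vertical axes) in each p21 OFF and p21 ON library, with points for libraries and bars for the group mean and SD. MCM2 to MCM6 are higher in all 3 p21 ON libraries, whereas MCM7 is slightly lower, with 27.3 normalized counts between the nearest libraries.

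Together the 6 genes had 23962, 24808 and 25252 normalized counts in p21 OFF and 28384, 29713 and 29052 in p21 ON. The sum was 1.18-fold higher with p21 ON, and without MCM7 it was 1.25-fold higher. As a share of all reads on genes, which does not use the size factors, MCM2-7 took 0.152% ± 0.00318 in p21 OFF and 0.185% ± 0.00375 in p21 ON (SD, n = 3 each, exact two-sided permutation p = 0.1, the smallest this design allows).

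Whether the subunits moved by the same amount was asked with ratios within each library, which do not depend on how libraries are scaled. For each gene, the mean log2 value of the other 5 was subtracted from its own. On this scale MCM7 was at 0.83, 0.90 and 0.77 in p21 OFF and at 0.41, 0.40 and 0.43 in p21 ON, which is -0.42 apart (exact two-sided permutation p = 0.1, Benjamini-Hochberg adjusted p = 0.2 over 6 genes). The p21 ON libraries were almost equal to each other and below the p21 OFF libraries, an order that the opposite directions of MCM7 and the other 5 genes already fix. MCM6 moved the other way, from -1.54, -1.62 and -1.59 to -1.31, -1.26 and -1.46, and MCM3 went from 0.51, 0.43 and 0.53 to 0.61, 0.62 and 0.66, both without overlap (exact two-sided permutation p = 0.1). The groups overlapped for MCM2, MCM4 and MCM5, with differences of 0.0086, -0.018 and 0.047 (exact two-sided permutation p = 0.7, 0.6 and 0.5). For MCM2 to MCM6 the other 5 include MCM7, the only member whose mean was lower, which raises their relative values with p21 ON. The ratios between single members below avoid this. What share of other genes would lack overlap on such a scale was not computed.

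**Figure D2:**
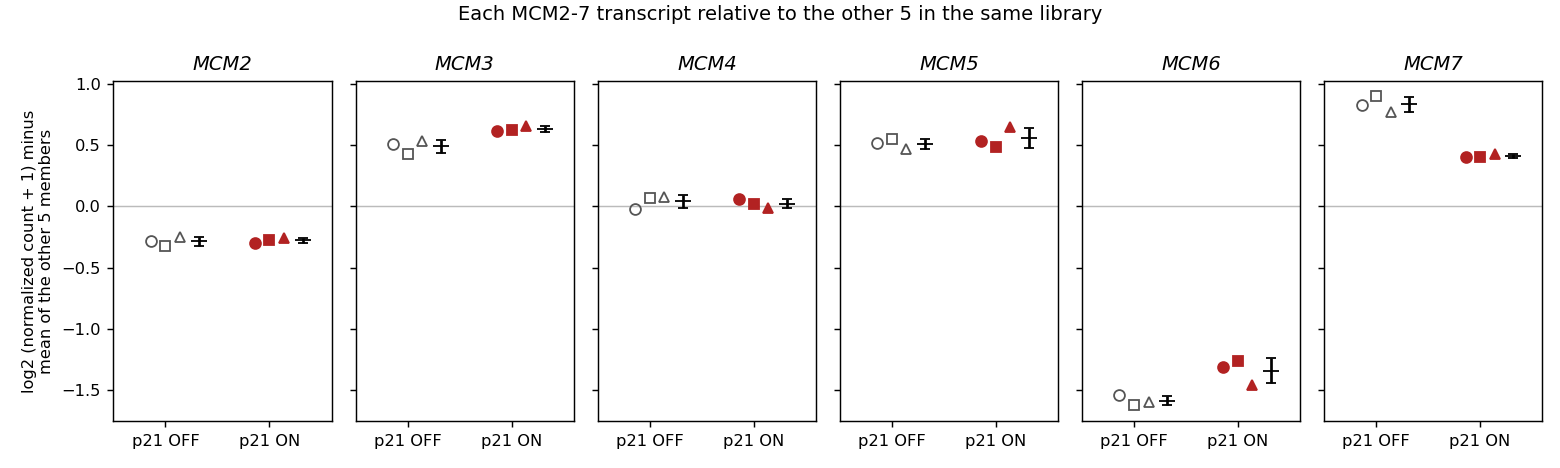
Level of each MCM2-7 gene relative to the other 5 in the same library (log2 difference, vertical axis), with a point for each p21 OFF and p21 ON library. MCM7 drops by 0.42 and MCM6 and MCM3 gain 0.24 and 0.14 without overlap between groups, while MCM2, MCM4 and MCM5 overlap. The other 5 include MCM7 for MCM2 to MCM6, which raises their values with p21 ON.

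The ratios to MCM7 could only rise, because every p21 ON library of MCM7 lay below its p21 OFF libraries and those of the other 5 genes above, so only their sizes are informative. Against MCM7, MCM6 gained 0.55, MCM3 0.47, MCM5 0.39, MCM2 0.36 and MCM4 0.34 on the log2 scale. Among the 5 genes that rose, MCM6 gained 0.22 on MCM4 and 0.19 on MCM2, and MCM3 gained 0.13 on MCM4 and 0.11 on MCM2, without overlap between groups (exact two-sided permutation p = 0.1, or 0.167 after Benjamini-Hochberg adjustment over the 15 ratios between members). The groups overlapped in the other 6 ratios among these genes. Ratios that share a member are not independent, and the share of such ratios without overlap among other genes was not computed.

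Levels of different genes can be compared only per length, and here the choice of length mattered. Per kilobase of the union of annotated exons, MCM3 was highest in p21 OFF at 1370.3 ± 62.0 normalized counts per kilobase, followed by MCM7 at 1227 ± 41.9, MCM5 at 694 ± 16.6, MCM2 at 677 ± 27.8, MCM4 at 391 ± 22.1 and MCM6 at 364 ± 7.50 (SD, n = 3). In p21 ON the order was MCM3 at 1790.5 ± 50.6, MCM7 at 1158 ± 26.9, MCM5 at 859 ± 33.5, MCM2 at 819 ± 26.5, MCM6 at 505 ± 39.1 and MCM4 at 466 ± 14.4. The ranges of MCM5 and MCM2 over libraries overlapped in both groups, and so did those of MCM4 and MCM6. Compared within each library, MCM4 was above MCM6 in 3 of 3 p21 OFF libraries, by as little as 0.012 on the log2 scale. MCM6 was above MCM4 in 3 of 3 p21 ON libraries. MCM5 was above MCM2 in 2 p21 OFF libraries and 3 p21 ON libraries. The union is long for MCM4 (9852 bases against 4062 in the canonical transcript) and MCM5 (7268 against 3458), and per kilobase of the canonical transcript MCM7 came first in both groups, ahead of MCM3, MCM5, MCM4, MCM2 and MCM6, with MCM4 and MCM2 overlapping. With other lengths MCM7 was first in p21 OFF but not in p21 ON, where MCM3 (2034 ± 57.5) lay above MCM7 (1861 ± 43.2) per kilobase of the longest annotated transcript and MCM5 (2836 ± 111) above MCM7 (2662 ± 61.8) per kilobase of coding length. With the union and with the canonical transcript, the share of MCM7 in the summed level of the 6 genes dropped, from 26.0% ± 0.914 to 20.7% ± 0.0415 with the union and from 31.5% ± 0.913 to 25.7% ± 0.0417 with the canonical transcript. With the union, that of MCM3 went from 29.0% ± 0.896 to 32.0% ± 0.190 and that of MCM6 from 7.71% ± 0.169 to 9.03% ± 0.592.

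**Figure D3:**
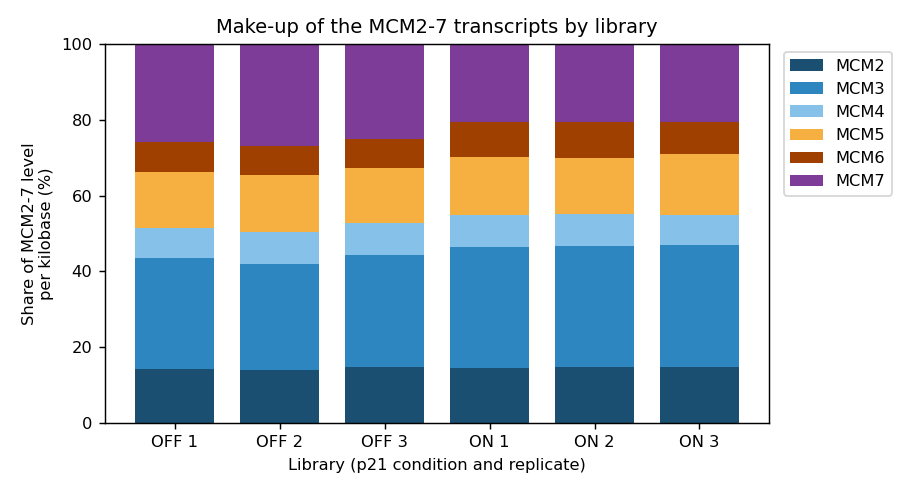
Share of each MCM2-7 gene in the summed level per kilobase of the 6 genes (percent, vertical axis), stacked for each p21 OFF and p21 ON library, with the union of exons as length. From the mean of p21 OFF to that of p21 ON the share of MCM7 goes from 26.0% to 20.7% and that of MCM3 from 29.0% to 32.0%.

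In GRCh37 the genes lie on 6 chromosomes: MCM2 at chr3:127317253-127341279 (plus strand, 16 exons in the canonical transcript), MCM3 at chr6:52128812-52149679 (minus, 17 exons), MCM4 at chr8:48872745-48890720 (plus, 17 exons), MCM5 at chr22:35796127-35821424 (plus, 17 exons), MCM6 at chr2:136597196-136634013 (minus, 17 exons) and MCM7 at chr7:99689856-99699563 (minus, 15 exons). Exons of MCM7 share 392 bases with AP4M1 on the opposite strand, and exons of MCM2 share 1113 bases with an antisense lncRNA. The libraries were stranded, but the strand setting of the counting is not given in the sources used here. AP4M1 had a mean of 181 normalized counts against 5913 for MCM7. The miRNA genes MIR25, MIR93 and MIR106B lie inside MCM7 on its strand, with means of 14.4, 1.29 and 0.845 normalized counts in this table.

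A neighbour starts on the opposite strand within 1000 bp of a member in 2 cases. PRKDC, which encodes the catalytic subunit of DNA-PK, starts 805 bp from MCM4, and its normalized counts rose from 6648 ± 574 to 8874 ± 422 (log2 fold change 0.42, SE 0.07, limma adjusted p = 0.000253). AP4M1, a subunit of the adaptor complex AP-4, starts 246 bp from MCM7 and had 163 ± 11.9 and 198 ± 4.33 normalized counts (log2 fold change 0.28, SE 0.10, limma adjusted p = 0.0554), which did not pass the test. Besides MCM7, exons of AP4M1 share 1418 bases with TAF6 on the opposite strand, which had a mean of 2628 normalized counts.

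The other components of the CMG helicase went the other way. All 5 genes, CDC45 and GINS1 to GINS4, fell with p21 ON (median log2 fold change -0.67), beside 12.7% of all genes tested. The call of GINS2 alone was lost in other fits. CDC45, the factor that bridges MCM2-7 and GINS, had 746, 654 and 638 normalized counts in p21 OFF and 333, 311 and 316 in p21 ON (log2 fold change -1.08, SE 0.08, limma adjusted p = 1.39e-08). GINS4 (SLD5) had 462, 529.6 and 568 in p21 OFF and 259.6, 197 and 254 in p21 ON (log2 fold change -1.14, SE 0.11, limma adjusted p = 3.49e-07). Neither overlapped between groups, and the levels of CDC45 and GINS4 with p21 ON were 0.473 and 0.455 of those with p21 OFF. GINS1 (PSF1) fell by 0.67, GINS3 (PSF3) by 0.44 and GINS2 (PSF2) by 0.22 on the log2 scale (SE 0.09, 0.09 and 0.08, limma adjusted p = 3.71e-05, 0.00149 and 0.047). GINS2 passed narrowly and lost its call in 11 of 17 alternative fits, among them DESeq2, the replicate block and each fit without 1 library, with an adjusted p of 0.0428 to 0.128. Exons of all 5 partners overlap a gene on the opposite strand. GINS1 shares 259 bases with NINL, and GINS4 shares 1145 with a lncRNA and 131 with GPAT4-AS1. GINS3 shares 558 and CDC45 41 with a lncRNA, and GINS2 shares 7 with GSE1.

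Since every p21 ON library of MCM2 to MCM6 lay above, and every p21 ON library of the 5 partners below, the p21 OFF libraries, ratios between them could only rise and were not counted. MCM7, which did not pass the test, still gained on its partners within libraries, by 1.05 on GINS4, 1.00 on CDC45, 0.59 on GINS1 and 0.35 on GINS3 on the log2 scale without overlap (exact two-sided permutation p = 0.1, the smallest possible), and by 0.14 on GINS2 with overlap (exact two-sided permutation p = 0.2). These ratios were chosen after the values were seen. GINS4, CDC45, GINS1 and GINS3 fell by more than MCM7 varied over the libraries. The lack of overlap in their ratios was therefore already fixed, and only the sizes are informative. Per kilobase of the union of exons, CDC45 was at 228 ± 19.6 normalized counts in p21 OFF and 107 ± 3.88 in p21 ON, below each MCM2-7 subunit in both groups, and the GINS genes ranged from 47.4 to 135 in p21 OFF and from 29.8 to 116 in p21 ON.

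**Figure D4:**
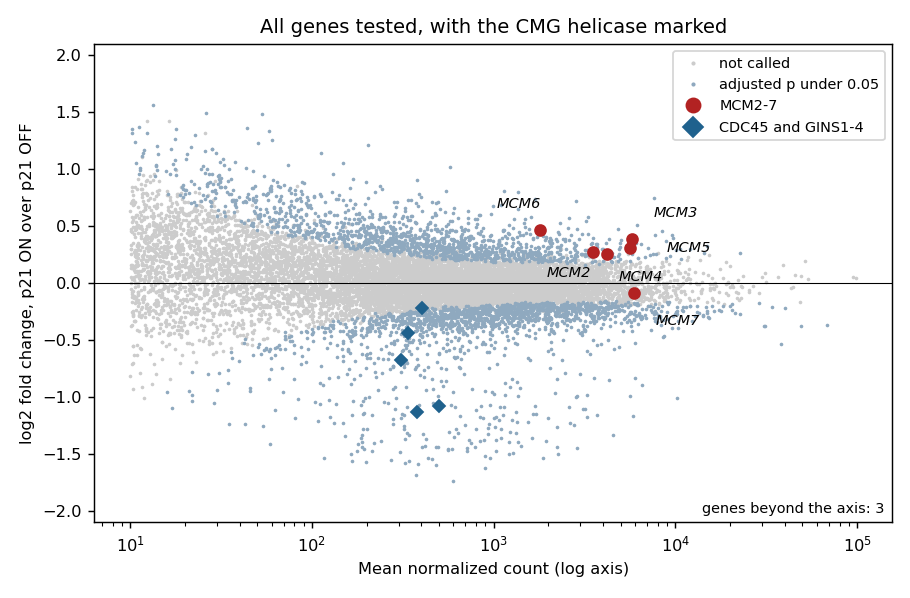
Log2 fold change of p21 ON over p21 OFF (vertical axis) against the mean normalized count (horizontal log axis) for the 13255 genes tested, with MCM2-7 as red circles and CDC45 and GINS1 to GINS4 as blue diamonds. MCM2 to MCM6 lie between 0.25 and 0.47, MCM7 at -0.08 and the 5 partners between -1.14 and -0.22.

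Of the genes that load MCM2-7 at origins or restrain loading, 4 of 9 were lower, none was higher, and the median log2 fold change was -0.17. Of all genes tested, 12.7% were called lower and 10.5% higher. The 4 were the origin recognition subunits ORC1, ORC3 and ORC6, and GMNN, which inhibits loading. ORC6, the smallest subunit of the origin recognition complex, fell from 457 ± 16.3 to 189 ± 26.3 normalized counts (log2 fold change -1.28, SE 0.10, limma adjusted p = 2.91e-08). CDT1, which brings MCM2-7 to the origin, had 1655, 1633 and 1585 normalized counts in p21 OFF and 1579.8, 1619 and 1959 in p21 ON (log2 fold change 0.08, SE 0.07, limma adjusted p = 0.495), where the p21 ON library 3 stood above the rest and the groups overlapped.

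Of the 8 genes that activate the loaded helicase, 6 were lower and none was higher (median log2 fold change -0.55), beside 12.7% and 10.5% of all genes tested. TICRR, which with MTBP brings CDC45 to origins in a CDK-dependent manner, fell from 904 ± 113 to 401 ± 32.8 normalized counts (log2 fold change -1.17, SE 0.09, limma adjusted p = 2.33e-08). MCM10, which despite its name is not a ring subunit but a firing factor, fell by 1.26 on the log2 scale (SE 0.11, limma adjusted p = 6.38e-08) and is named here after its value was seen. TOPBP1, called lower at an adjusted p of 0.0205 in limma, lost its call in 4 of the 6 fits without 1 library, and exons of TICRR share 589 bases with KIF7 on the opposite strand. Of the kinase that phosphorylates MCM2-7, the catalytic subunit CDC7 had 2064 ± 35.2 and 2239 ± 54.6 normalized counts (log2 fold change 0.12, SE 0.06, limma adjusted p = 0.151), whereas the regulatory subunit DBF4, also named after its value was seen, fell by 0.86 (SE 0.08, limma adjusted p = 1.9e-07).

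Proteins that bind MCM2-7 outside these steps gave 1 gene higher and 2 lower of 7, beside 10.5% and 12.7% of all genes tested, so these counts are near the background. TONSL, which binds histones next to MCM2-7, fell by 0.48 on the log2 scale (SE 0.07, limma adjusted p = 6.19e-05), and the FACT subunit SUPT16H had a log2 fold change of 0.01 (SE 0.06, limma adjusted p = 0.924). The single higher gene was MCM3AP, whose product binds MCM3 (log2 fold change 0.17, SE 0.06, limma adjusted p = 0.0486). MCM3AP was named after its value was seen, lost its call in 10 of 17 alternative fits and shares 1752 exon bases with its antisense gene MCM3AP-AS1.

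In the fork protection group 1 of 4 genes was lower and none higher, beside 12.7% and 10.5% of all genes tested. A single gene of 4 cannot be set apart from that background. TIMELESS was at -0.30 (SE 0.06, limma adjusted p = 0.00131) and its partner TIPIN at 0.00 (SE 0.12, limma adjusted p = 0.995) on the log2 scale. Of the 7 genes for unloading, 3 were lower and none higher, beside 12.7% and 10.5% of all genes tested. Of the 3, UFD1 lost its call in 3 of the 6 fits without 1 library. TRAIP, a ubiquitin ligase that acts on the CMG helicase, fell from 277 ± 29.2 to 102 ± 19.5 normalized counts (log2 fold change -1.44, SE 0.13, limma adjusted p = 1.79e-07), and the VCP cofactor FAF1 had a log2 fold change of -0.03 (SE 0.06, limma adjusted p = 0.738).

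The list of the MCM paralogs outside the replicative ring and the MCM8-MCM9 partner HROB had 2 genes lower and none higher of 3 tested (median log2 fold change -0.62). Of all genes tested, 12.7% were lower and 10.5% higher. MCM8 fell from 830 ± 36.9 to 542 ± 55.6 normalized counts (log2 fold change -0.62, SE 0.08, limma adjusted p = 2.69e-05), and MCM9, with which MCM8 forms a helicase for homologous recombination, had 332 ± 24.9 and 366 ± 15.8 (log2 fold change 0.14, SE 0.09, limma adjusted p = 0.255). HROB, which recruits MCM8 and MCM9 to damaged DNA, fell by 1.14 on the log2 scale (SE 0.11, limma adjusted p = 2.58e-07). MCMDC2 had means of 8.11 and 9.01 normalized counts and was not tested. Exons of MCM8 share 2564 bases with another annotated gene on the same strand, and those of MCM9 share 205 with ASF1A.

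Of the 44 pathway genes outside MCM2-7, 43 were tested, of which 23 were lower and 1 was higher, with a median log2 fold change of -0.21. Of the 6 ring subunits 5 were higher and none was lower. The copy of the high-stringency G1/S gene list used here is shorter than the list the paper describes and holds 4 of the 6 subunits. Of its 56 other genes 50 were tested, 15 of them higher and 10 lower, with a median of 0.08. Beside these counts, 10.5% of all genes tested were called higher and 12.7% lower. For genes averaging 1000 normalized counts or more the shares were 8.16% higher and 19.6% lower, and the 10 lower G1/S genes are near the last of these. The G1/S list was not limited to genes of that level, so the shares of all genes tested are its matching background.

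**Figure D5:**
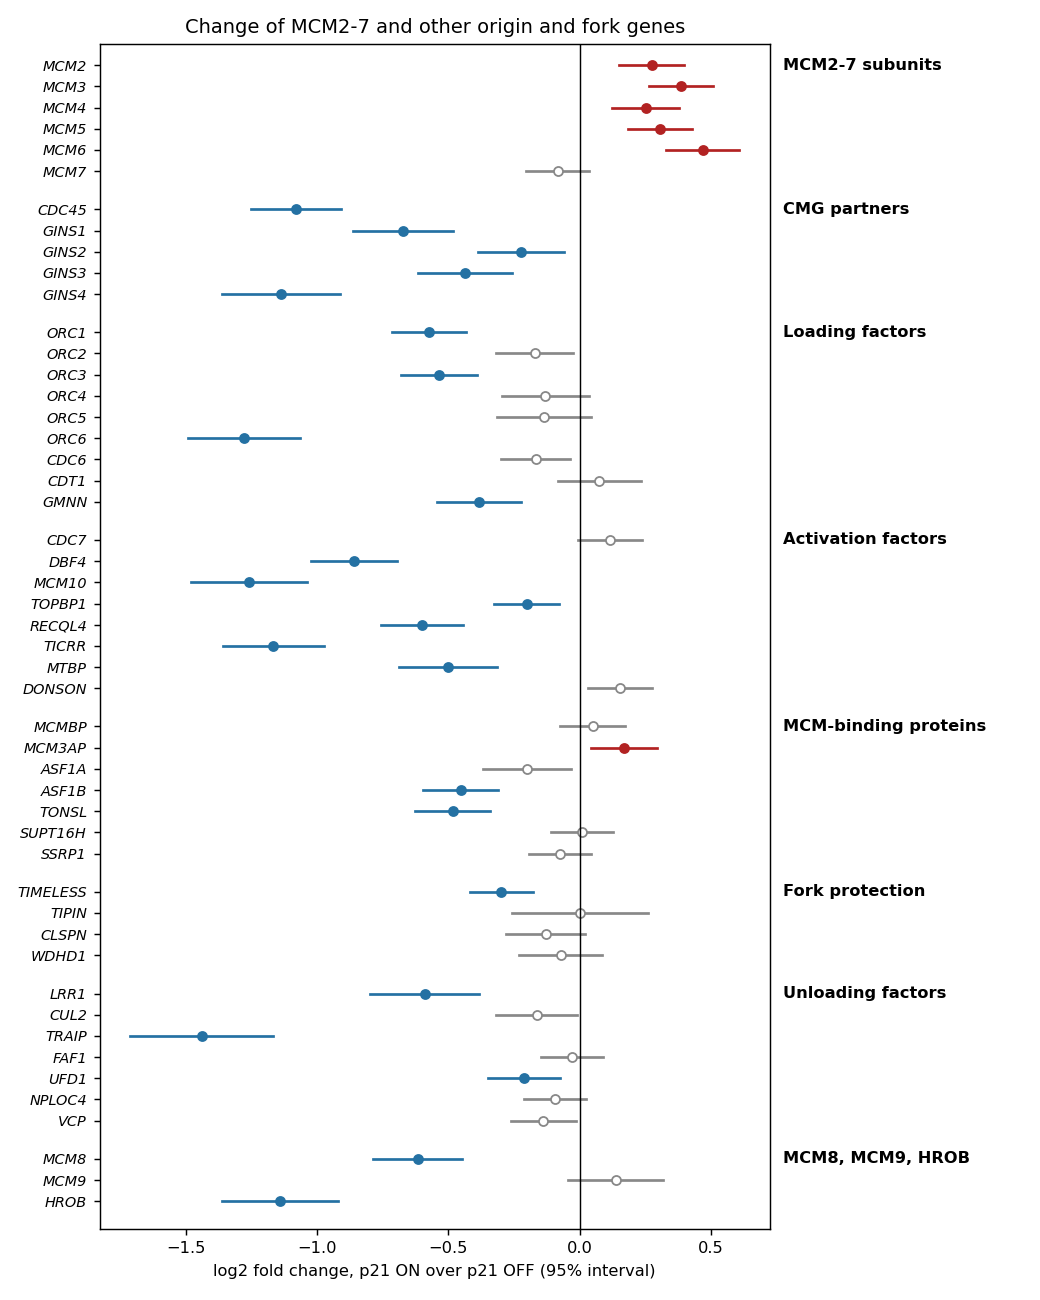
Log2 fold change of p21 ON over p21 OFF (horizontal axis) with its 95% interval for MCM2-7 and the other origin and fork genes, grouped by role. Filled points passed the limma test, red for higher and blue for lower: 5 of the 6 ring subunits are red, all 5 CMG partners are blue, and outside the ring MCM3AP alone is red.

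The genes whose course over the 6 libraries was most like the mean of MCM2-7 were VAV2, KLHDC5, CTDSPL, KDELC2 and CYBRD1, with a root mean square difference of 0.018 to 0.029 on the log2 scale among 10442 genes with a mean of at least 100. Their log2 fold changes were 0.24 to 0.27, a closeness that the choice by likeness to that mean already fixes. In the same ranking MCM2 was at place 2, MCM4 at 10, MCM5 at 66, MCM3 at 264, MCM6 at 1961 and MCM7 at 5498, so members other than MCM2 and MCM4 were further from the mean of MCM2-7 than many genes outside it. Each member is itself part of that mean, which draws its place forward relative to genes outside. RB1 had 555 ± 66.8 and 654 ± 39.7 normalized counts (limma adjusted p = 0.0516), so reads on RB1 were present in a line described as lacking functional RB.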

How the data were processed

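Per the labels and the paper's methods, the authors made stranded mRNA libraries, aligned them to hg19 (STAR), assigned reads to genes (HTSeq) and divided the counts by DESeq2 size factors. Versions are not given in the sources used here. The deposited values are normalized counts, a signal that is 0 or above. In all 6 libraries 100% of the values were whole multiples of 1 step (tolerance 0.01 reads), which returned whole reads. The main test was limma 3.58.1 (lmFit, eBayes with a trend) in R 4.3.3 on log2(normalized count + 1) without covariates, in the 13255 genes averaging 10 or more, Benjamini-Hochberg adjusted with a threshold of 0.05. edgeR 4.0.16 and DESeq2 1.42.0 on the recovered reads were alternatives, as were other scalings, pseudocounts of 0.1 and 10, no filter, a threshold of 0.01, a replicate block and each library left out. The code was tested on simulated data. Ratios within libraries were tested by enumerating all 20 arrangements of the group labels (Python 3.11.15, numpy 2.4.6).

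Positions, exons and promoters are from GRCh37 with GENCODE annotation, the build of hg19, with which 19137 table rows were matched. Of the 50 list genes 4 were matched by an older symbol (TICRR, UFD1, HROB and MCMDC2). Named were all MCM2-7, CMG partner and paralog genes, and in each other group the genes with the lowest and the highest adjusted p-value, unless stated otherwise. The members and lists were chosen with earlier results of these data known. Replicate pairs of a group were further apart than sampling alone would put them (chi-square per gene 2.71 to 9.26). The widest pairs, at 8.50 and 9.26, both held p21 OFF library 1, and the other pairs were at 2.71 to 3.98. The values of 1 gene named in the plan are not reported here.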

Additional observations from a re-analysis of the deposited data

How the results depend on the processing

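The calls of the 6 subunits, 5 higher and none lower, were the same in all 17 alternative fits. Without 1 library the log2 fold change was 0.25 to 0.31 for MCM2, 0.36 to 0.42 for MCM3, 0.21 to 0.29 for MCM4, 0.28 to 0.33 for MCM5, 0.41 to 0.52 for MCM6 and -0.10 to -0.057 for MCM7. Limma called 1393 genes higher and 1681 lower, DESeq2 1073 and 1502, a threshold of 0.01 616 and 882, and scaling by library size alone 2034 and 1194, with a median of MCM2-7 of 0.34. Fits without 1 library gave 692 to 1488 higher and 888 to 1662 lower, with the fewest without p21 ON library 1 (692 and 888) and p21 ON library 3 (739 and 1076). The 1 pathway gene called higher, MCM3AP, became 0 with edgeR under either scaling, without a filter, with the replicate block and at 0.01, 2 with scaling by library size alone, and 0 to 1 without 1 library (0 without p21 OFF library 3 or p21 ON library 1, 2 or 3, and without p21 OFF library 1 the gene called was DONSON in place of MCM3AP). Relative to the other 5, MCM2 changed sign without p21 OFF library 2 or p21 ON library 3 (range -0.0099 to 0.026 without 1 library), and MCM4 was at 0.032 against their median and at -0.050 to 0.00025 without 1 library. No pairing of the libraries by replicate number was detected (same-number correlation of deviations -0.057 to -0.025, with 0 of 6 libraries closest to their own number). Such small correlations cannot tell whether libraries of the same number were prepared together. The replicate block gave 1407 higher and 1513 lower genes, with MCM7 at an adjusted p of 0.443 and MCM4 at 0.0098 in limma.

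In p21 OFF the normalized counts per kilobase of the longest annotated transcript were 929 (MCM2), 1557 (MCM3), 708 (MCM4), 1097 (MCM5), 401 (MCM6) and 1972 (MCM7), those per kilobase of coding length were 1176, 1952, 1421, 2292, 611 and 2821 in the same order, and those per kilobase of the canonical transcript, chosen after seeing the data, were 929, 1628, 949, 1459, 401 and 2466. The cause of these changes was not tested beyond the lengths used. With 3 libraries a group, a single ratio cannot pass 0.05 in a permutation test.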
